A study of Homo sapiens with 12 samples.

Results

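The genes of the cytosolic translation initiation and elongation factors were described in Jurkat cells, an established human T-cell leukaemia line. They were all genes whose symbols begin with EIF1 to EIF6 or with EEF1 or EEF2. The eIF2 kinases, EIF4ENIF1, the Argonaute genes and antisense or divergent transcripts were left out. This gave 53 of 19775 named genes, each taken from the probe set that listed no other symbol and had the highest mean over the arrays. Of these, 51 were among the 12824 genes tested, whose mean log2 value was at or above 4.02. EIF4A2, an RNA helicase gene, and EIF3C, a core eIF3 subunit gene, had means of 2.68 and 3.90 and were not tested. EIF4A1, EEF1B2, EEF1G, EIF3CL and EIF4EBP3 had only probe sets that listed further genes and were not used here.

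The cells carried a construct for miR-21 or a control vector, and the labels say no more of either. Immunoprecipitations (IPs) of AGO2, IPs with control IgG and the unprecipitated material (Total RNA) were the 3 fractions of each. AGO2 is the Argonaute protein that holds miRNAs and the mRNAs they pair with. The 6 groups were miR-21 AGO2 IP, control vector AGO2 IP, miR-21 IgG IP, control vector IgG IP, miR-21 Total RNA and control vector Total RNA, with 2 replicates each on 12 Affymetrix arrays. All cells grew in RPMI with 10% FBS. Labelled cRNA was made from 100 ng of RNA in the IPs and from 1 ug in Total RNA, so the amount and the fraction cannot be told apart. The labels do not say that the replicates were separate cultures, so p-values measure the spread between these arrays, which may be technical. Because the arrays held RNA of many cells, fewer cells with an mRNA and fewer copies per cell cannot be told apart.

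Initiation factors bring the small ribosomal subunit, the initiator tRNA and the mRNA together. eIF2 delivers the initiator tRNA, eIF2B recharges eIF2 with GTP, eIF3 scaffolds the small subunit, and the eIF4 factors bind the cap and unwind the leader. Elongation factors eEF1A and eEF2 then bring aminoacyl-tRNAs and move the ribosome along the mRNA. Many mRNAs of this machinery begin with a run of pyrimidines, the 5′ terminal oligopyrimidine (TOP) tract, through which mTOR and LARP1 control their translation. miRNAs held by AGO2 repress mRNAs in part through translation initiation.

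The RNA that gave the construct its name and the starts of members that recur below are shown as RefSeq lists them on GRCh38.p14. Of the 53 genes, 41 had a listed start. The windows run from 10 bases before the start to the 20 bases from the start on. Capitals mark the seed in the miRNA (bases 2 to 8) and, in the genes, the unbroken run of C or T from the start. The miRNA lies at chr17:59841273-59841294 on the plus strand.
hsa-miR-21-5p: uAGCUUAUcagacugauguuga
EIF3D, EIF3F and EIF3K encode eIF3 subunits with such a run, at chr22:36529147-36529176 (minus), chr11:7987327-7987356 (plus) and chr19:38619178-38619207 (plus).
EIF3D: cgcatgtttcCTCTTTTCCTggtttctcaa
EIF3F: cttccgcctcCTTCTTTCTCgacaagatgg
EIF3K: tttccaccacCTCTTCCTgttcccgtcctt
EIF3I, at chr1:32222397-32222426 (plus), encodes an eIF3 subunit whose listed start has no such run.
EIF3I: ttccggtcttactcacgttgcggccttcct
EEF1A1 and EEF2, at chr6:73521013-73521042 (minus) and chr19:3985444-3985473 (minus), encode the elongation factors eEF1A and eEF2 and are textbook TOP genes.
EEF1A1: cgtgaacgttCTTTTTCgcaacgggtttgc
EEF2: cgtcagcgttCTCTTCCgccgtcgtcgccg
The runs are 10 bases long in EIF3D and EIF3F, 8 in EIF3K and 7 in EEF1A1 and EEF2.

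The arrays of the 2 replicates stood apart. Array means were 4.39 to 4.41 in replicate 1 and 5.26 to 5.27 in replicate 2. Both IPs of a construct gave nearly the same values in replicate 2, with an SD over the genes tested of AGO2 IP minus IgG IP of 0.29 for miR-21 and 0.18 for the control vector, against 0.79 and 0.83 in replicate 1. Whether each IP array of replicate 2 held the fraction that its label names was not tested, and every IP mean over both replicates carries that limit. The 3′ minus 5′ signal of ACTB, a sign of RNA integrity, differed by replicate. In replicate 1 the AGO2 IP arrays had 1.97 (miR-21) and 4.0 (control vector), the IgG IP arrays 2.08 and 2.18, and the Total RNA arrays 1.35 and 1.38, so the IPs were above Total RNA and the 4.0 stood apart. In replicate 2 the AGO2 IP arrays had 2.08 and 2.58, with 3.48 and 2.57 for IgG IP. Total RNA there had 3.18 and 3.53, so by ACTB both AGO2 IP arrays were below it. GAPDH, taken the same way, put every IP array above Total RNA in each replicate. Its IP values spanned 0.35 to 1.95 in replicate 1, where Total RNA had 0.14 and 0.22. They spanned 1.02 to 1.60 in replicate 2, where Total RNA had 0.58 and 0.71. The ACTB and GAPDH signals thus disagreed for AGO2 IP in replicate 2. All 8 T cell markers were at or above the tested level (array means 7.50 to 8.62), as were 1 of 3 B cell, 1 of 3 monocyte and 2 of 5 epithelial markers with a probe set. The parts that the labelled amount, RNA integrity and the alike arrays had in the values below were not tested.

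In AGO2 IP, mRNAs of the translation factors were mostly lower than in Total RNA, and those of the eIF3 subunits most of all. Of the 51 genes, 39 had a difference below 0, with a median of -0.42 on the log2 scale, against -0.05 over all genes tested. In limma with the replicate number as a block, 14 genes fell (27.5%) and 1 rose (1.96%) at a Benjamini-Hochberg adjusted p under 0.05, where 11.3% of all genes tested were called lower and 4.71% higher. Without that block limma called none of the 51 and 0% of all genes (smallest adjusted p 0.366), although 11 members and 1230 genes had an unadjusted p under 0.05. "Rose" and "fell" refer below to the model with the block, and values are means of both constructs, 4 arrays against 4. After cyclic loess scaling of the arrays, 9 members fell and none rose, 8 of them among the 14. No member was called in a fit without the miR-21 AGO2 IP array of replicate 1, that of replicate 2, or either Total RNA array of replicate 2. The split of all called genes was 604 higher and 1447 lower, and 619 higher and 788 lower after that scaling.

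**Figure D1:**
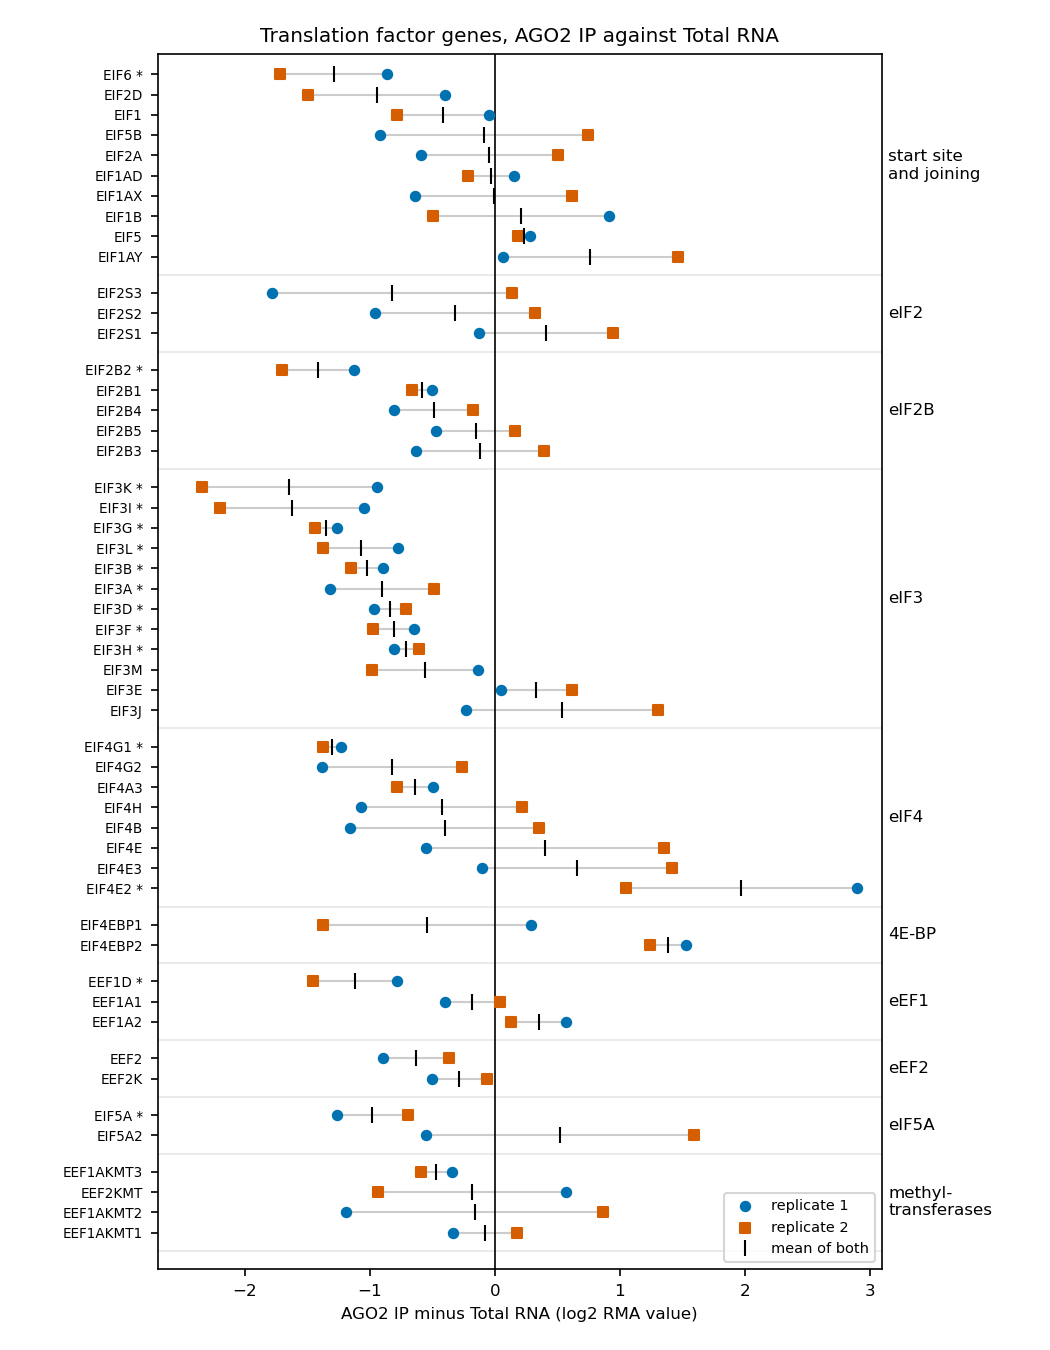
AGO2 IP minus Total RNA (log2, x axis) for the 51 tested translation factor genes, grouped by role; circles are replicate 1, squares replicate 2 (each the mean of both constructs), ticks the mean, and an asterisk marks an adjusted p under 0.05 with the replicate block. The 9 eIF3 genes that fell lie left of 0 in both replicates, and EIF4E2 is the called gene to the right.

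The eIF3 subunit genes were the group with the most calls. Of the 12 tested, 9 fell and none rose, where 11.3% and 4.71% of all genes tested did. The median difference was -0.87. EIF3I encodes a WD-repeat subunit of the complex. EIF3I had 9.61 and 9.82 in miR-21 AGO2 IP and 9.52 and 9.49 in control vector AGO2 IP in replicates 1 and 2, against 10.60 and 11.87 in miR-21 Total RNA and 10.62 and 11.85 in control vector Total RNA. All 4 AGO2 IP arrays were below all 4 Total RNA arrays, and EIF3I fell by 1.62 ± 0.32 (SE, limma with the block, adjusted p = 0.0181). Its difference was -1.05 in replicate 1 and -2.20 in replicate 2.

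EIF3K, which encodes a peripheral subunit, had 9.83 and 9.29 in miR-21 AGO2 IP and 9.98 and 9.68 in control vector AGO2 IP, against 10.92 and 11.73 in miR-21 Total RNA and 10.79 and 11.93 in control vector Total RNA. The groups did not overlap, and EIF3K fell by 1.64 ± 0.37 (SE, adjusted p = 0.0231). Its other probe sets gave -1.52, -1.57 and -0.06, the last from one with a mean near the tested level. EIF3G, the gene of an RNA-binding subunit, had 9.16 and 9.83 in miR-21 AGO2 IP and 9.08 and 10.26 in control vector AGO2 IP, against 10.40 and 11.33 in miR-21 Total RNA and 10.37 and 11.64 in control vector Total RNA. EIF3G was lower in AGO2 IP within both replicates and fell by 1.35 ± 0.27 (SE, adjusted p = 0.0185).

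Among the core subunits, EIF3B, the gene of the scaffold subunit that binds eIF3a, eIF3g and eIF3i, had 8.91 and 9.44 in miR-21 AGO2 IP and 9.02 and 9.49 in control vector AGO2 IP, against 9.89 and 10.49 in miR-21 Total RNA and 9.83 and 10.76 in control vector Total RNA. No AGO2 IP array reached the lowest Total RNA array. EIF3B fell by 1.02 ± 0.18 (SE, adjusted p = 0.0149), with -0.90 in replicate 1 and -1.15 in replicate 2. EIF3A, the gene of the largest subunit, fell by 0.90 (adjusted p = 0.0447), with -1.32 and -0.49 in the replicates. The call of EIF3A was lost in 4 of the alternatives that kept all arrays with the block: median centring (adjusted p = 0.0556), the mean of probe sets (0.0653), no filter (0.0518) and limma's trend and robust options (0.0519). It held in 3 of the 12 fits that left out 1 array (adjusted p up to 0.162).

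The other eIF3 genes that fell were EIF3L by 1.07 (adjusted p = 0.0266), EIF3D by 0.84 (0.0295), EIF3F by 0.81 (0.0434) and EIF3H by 0.71 (0.0338). EIF3D encodes a cap-binding subunit, and EIF3F and EIF3H encode the subunits with MPN domains. After cyclic loess EIF3L (adjusted p = 0.0538), EIF3D (0.051), EIF3F (0.0849) and EIF3K (0.0522) were not called, and from the mean of probe sets EIF3F (0.105) and EIF3H (0.36) were not. Of the 12 fits that left out 1 array, EIF3L was called in 7, EIF3D in 5, EIF3F in 3 and EIF3H in 3. EIF3I, EIF3K, EIF3G and EIF3B were called in 8. EIF3F had probe sets on both sides of 0: the one used and a second gave -0.81 and -0.75, and the remaining one, with a mean of 2.29, gave 0.10. EIF3M, EIF3E and EIF3J did not pass the test. EIF3J, the gene of a loosely bound subunit, was the highest of the group at 0.54 (adjusted p = 0.295), with -0.23 in replicate 1 and 1.31 in replicate 2. EIF3C, not tested, had 2.27 and 3.74 in miR-21 AGO2 IP and 2.92 and 4.79 in control vector AGO2 IP, against 3.71 and 5.77 in miR-21 Total RNA and 3.82 and 5.54 in control vector Total RNA.

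Among the eIF4 genes, 1 of 8 rose and 1 fell, where 4.71% and 11.3% of all genes tested did. EIF4E2 encodes 4EHP, a cap-binding protein that does not recruit eIF4G and is known to act in miRNA-mediated repression. EIF4E2 had 10.53 and 10.80 in miR-21 AGO2 IP and 10.91 and 9.42 in control vector AGO2 IP, against 7.76 and 9.0 in miR-21 Total RNA and 7.87 and 9.13 in control vector Total RNA. The AGO2 IP arrays were all above the Total RNA arrays, with the smallest difference within a construct and replicate, 0.29, in the control vector arrays of replicate 2. EIF4E2 rose by 1.98 ± 0.54 (SE, adjusted p = 0.039), with 2.90 in replicate 1 and 1.05 in replicate 2. Its other probe sets gave 1.52, 0.34 and 0.22. EIF4E2 was not called after cyclic loess scaling (adjusted p = 0.0664) or with no filter (0.0558), and it was called in 3 of the 12 fits that left out 1 array.

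EIF4G1 encodes the scaffold that joins the cap-binding protein to eIF3. EIF4G1 had 7.73 and 7.64 in miR-21 AGO2 IP and 7.25 and 7.60 in control vector AGO2 IP, against 8.73 and 8.80 in miR-21 Total RNA and 8.72 and 9.20 in control vector Total RNA. The groups did not overlap, and EIF4G1 fell by 1.31 ± 0.23 (SE, adjusted p = 0.0149), by similar amounts in the replicates (-1.23 and -1.38). It was called in 8 of the 12 fits that left out 1 array, as was EIF2B2. EIF4E, the gene of the canonical cap-binding protein, had 9.38 and 10.84 in miR-21 AGO2 IP and 8.36 and 11.08 in control vector AGO2 IP, against 9.40 and 9.72 in miR-21 Total RNA and 9.44 and 9.49 in control vector Total RNA. Its differences lay on opposite sides of 0 in the replicates, -0.55 in replicate 1 and 1.36 in replicate 2, and the mean of 0.40 did not pass the test (adjusted p = 0.534). EIF4A2 had 1.95 and 2.69 in miR-21 AGO2 IP and 2.71 and 3.12 in control vector AGO2 IP, against 2.43 and 2.88 in miR-21 Total RNA and 2.14 and 2.95 in control vector Total RNA.

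Neither gene of an eIF4E-binding inhibitor passed the test. EIF4EBP2 encodes 4E-BP2, which keeps eIF4E from eIF4G. EIF4EBP2 had 10.18 and 11.09 in miR-21 AGO2 IP and 9.93 and 9.68 in control vector AGO2 IP, against 8.53 and 9.06 in miR-21 Total RNA and 8.52 and 9.22 in control vector Total RNA. The AGO2 IP arrays were all higher, with a difference of 1.39 (adjusted p = 0.0585), but another of its probe sets gave -0.14. EIF4EBP1, the gene of 4E-BP1, had 0.29 in replicate 1 and -1.37 in replicate 2, a mean of -0.54 (adjusted p = 0.362). PDCD4, a known miR-21 target whose protein inhibits eIF4A, had values of 1.91 to 3.61 from its only probe set without another symbol and was not tested.

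**Figure D2:**
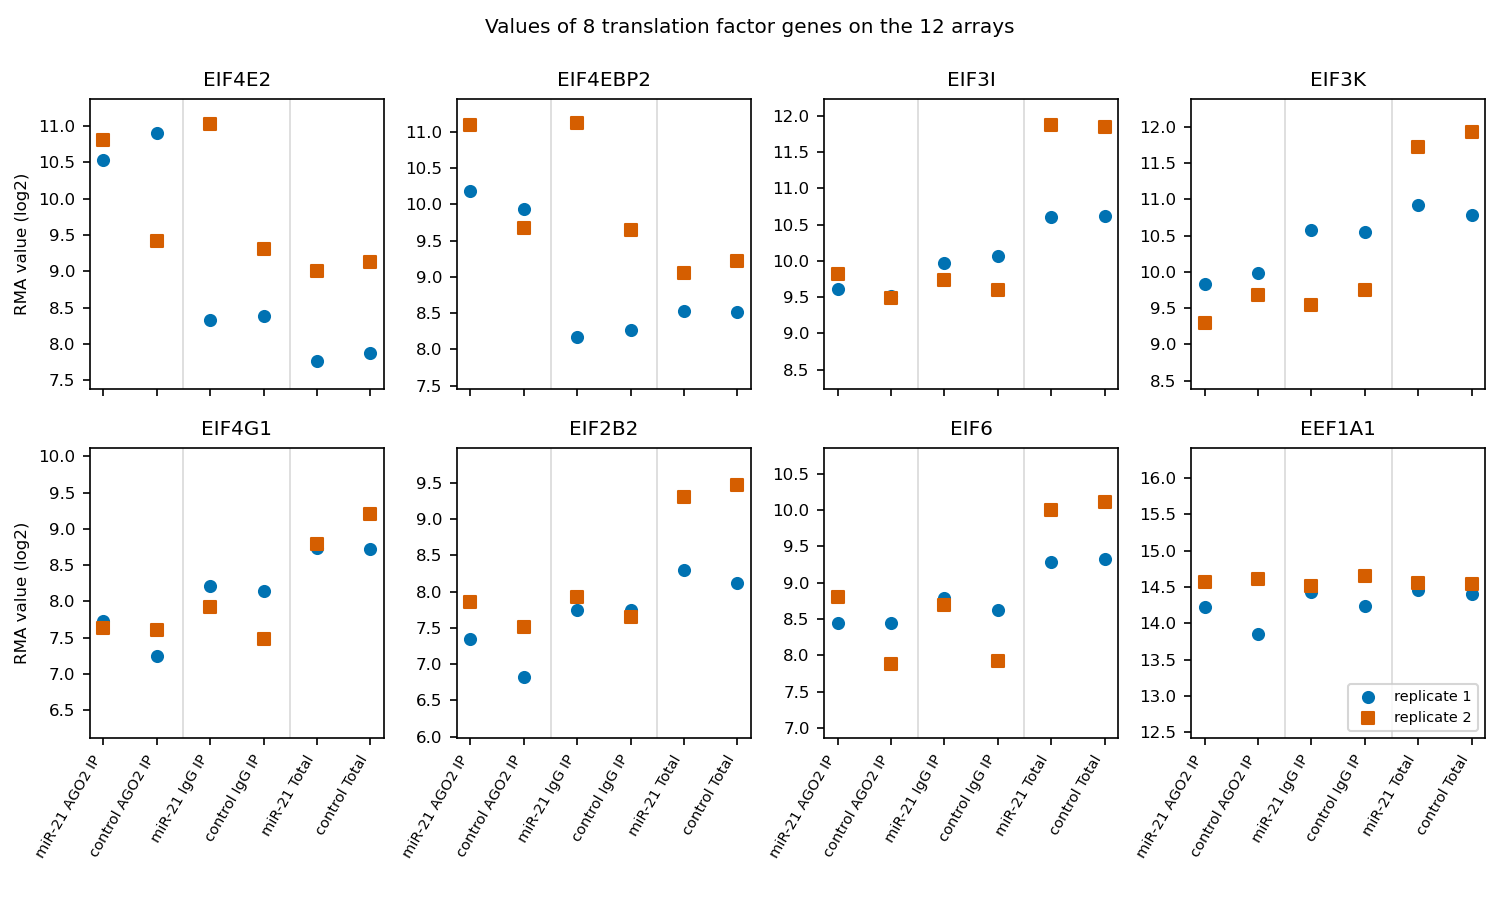
RMA values (log2, y axis; each panel spans the same range) of 8 translation factor genes on the 12 arrays, by group along the x axis; circles are replicate 1 and squares replicate 2. EIF3I, EIF3K, EIF4G1, EIF2B2 and EIF6 are lower in all AGO2 IP arrays than in the Total RNA arrays, and EIF4E2 and EIF4EBP2 are high in the miR-21 arrays of both IPs in replicate 2.

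Of the eIF2 subunit genes, none of 3 passed the test. EIF2S1, the gene of the alpha subunit that stress kinases phosphorylate, had a difference of 0.41 (adjusted p = 0.292) with -0.13 in replicate 1 and 0.94 in replicate 2. EIF2S3, the gene of the GTP-binding gamma subunit, had -0.82 (adjusted p = 0.163), with -1.78 in replicate 1 and 0.14 in replicate 2. Both were on opposite sides of 0 in the replicates. Of the 5 eIF2B subunit genes, all were below 0 and EIF2B2 fell, where 11.3% of all genes tested did. EIF2B2, the gene of the beta subunit of this exchange factor, had 7.34 and 7.85 in miR-21 AGO2 IP and 6.83 and 7.51 in control vector AGO2 IP, against 8.30 and 9.30 in miR-21 Total RNA and 8.12 and 9.47 in control vector Total RNA. The groups did not overlap, and EIF2B2 fell by 1.41 ± 0.26 (SE, adjusted p = 0.0159). EIF2B3, the gene of the gamma subunit, was nearest to 0 at -0.12 (adjusted p = 0.792).

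Among the 10 genes of start-site selection, subunit joining and other single factors, 1 fell, where 11.3% of all genes tested did. The median of the 10 was -0.04. EIF6 encodes a factor that keeps the large ribosomal subunit from joining too early. EIF6 had 8.44 and 8.80 in miR-21 AGO2 IP and 8.45 and 7.88 in control vector AGO2 IP, against 9.29 and 10.00 in miR-21 Total RNA and 9.32 and 10.12 in control vector Total RNA. All AGO2 IP arrays were lower, and EIF6 fell by 1.29 ± 0.29 (SE, adjusted p = 0.0231). EIF6 was not called after cyclic loess (adjusted p = 0.067), and was called in 8 of the 12 fits without 1 array. EIF1AY, a gene of the scanning factor eIF1A, was the highest of the group at 0.76 (adjusted p = 0.163). Its difference was 0.06 in replicate 1 and 1.46 in replicate 2.

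Of the elongation factor genes, EEF1D fell. EEF1D encodes a subunit of the exchange factor that recharges eEF1A, and had 10.78 and 10.75 in miR-21 AGO2 IP and 11.24 and 10.99 in control vector AGO2 IP, against 11.82 and 12.26 in miR-21 Total RNA and 11.76 and 12.39 in control vector Total RNA. The groups did not overlap, and EEF1D fell by 1.12 ± 0.25 (SE, adjusted p = 0.0227). Its other probe sets gave -1.74, -0.92 and -0.10. EEF1D was not called after cyclic loess (adjusted p = 0.0525) or from the mean of probe sets (0.0773), and was called in 8 of the 12 fits without 1 array.

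EEF1A1 had 14.22 and 14.57 in miR-21 AGO2 IP and 13.85 and 14.61 in control vector AGO2 IP, against 14.46 and 14.55 in miR-21 Total RNA and 14.41 and 14.55 in control vector Total RNA. The groups overlapped, and the difference of -0.18 did not pass the test (adjusted p = 0.559). Values of EEF1A1 were close to the highest in the file (14.76), and its probe set can also detect near-identical copies of the gene. EEF1A2, the gene of the second eEF1A form, had 0.35 (adjusted p = 0.325). EEF2 had 11.84 and 12.68 in miR-21 AGO2 IP and 11.21 and 13.03 in control vector AGO2 IP, against 12.41 and 13.13 in miR-21 Total RNA and 12.42 and 13.31 in control vector Total RNA. EEF2 was lower in AGO2 IP within each replicate, but its difference of -0.63 did not pass the test (adjusted p = 0.103). EEF2K, the gene of the kinase that inactivates eEF2, had -0.29 (adjusted p = 0.348). Its other probe set gave -1.11, and EEF2K was called lower from the mean of probe sets.

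EIF5A encodes the hypusine-bearing factor that helps the ribosome past difficult peptide bonds. EIF5A had 10.43 and 9.96 in miR-21 AGO2 IP and 9.33 and 9.49 in control vector AGO2 IP, against 11.06 and 10.30 in miR-21 Total RNA and 11.23 and 10.55 in control vector Total RNA. The groups were apart within each replicate, and EIF5A fell by 0.98 ± 0.26 (SE, adjusted p = 0.0359), a call kept in 5 of the 12 fits without 1 array. Other probe sets of EIF5A gave the smaller differences of -0.55 and -0.38. EIF5A2, its paralog, had -0.55 in replicate 1 and 1.60 in replicate 2, a mean of 0.52 (adjusted p = 0.506). The 4 genes of methyltransferases that modify elongation factors did not pass the test, from -0.47 for EEF1AKMT3 (adjusted p = 0.133) to -0.08 for EEF1AKMT1 (adjusted p = 0.867).

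Taken within each replicate, 21 of the 51 genes had every AGO2 IP array below both Total RNA arrays in both replicates, where 21% of all genes tested did, and 4 had every AGO2 IP array above, where 11.4% did. So 21 genes were 41.2% of the members. Fits of replicate 1 alone, with fraction and construct as terms, called 27 members lower and 4 higher, where 23.3% and 13% of all genes were called. Fits of replicate 2 alone called 18 members lower and 8 higher, where 19.4% and 15.8% of all genes were called. Fits of 1 replicate alone, here and below, took the arrays of both constructs as repeats of a fraction. Their p-values do not measure the spread between replicates. The median of the members was -0.59 in replicate 1 and -0.21 in replicate 2. Called the same way in both were 11 genes (21.6%, where 13.1% of all genes were), all lower: EEF1D, EIF2B2, EIF3B, EIF3D, EIF3F, EIF3G, EIF3I, EIF3K, EIF3L, EIF4G1 and EIF6. Called in opposite ways were 4 genes (7.84%, where 2.85% of all genes were): EEF1AKMT2, EIF5A2 and EIF5B, lower in replicate 1 and higher in replicate 2, and EEF2KMT, the reverse. These lists were drawn after their values were seen.

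IgG IP against Total RNA uses the same Total RNA arrays as the comparison above, so the values are set side by side and not tested against each other. In limma with the replicate block none of the 51 genes was called, where 1.62% of all genes were called lower and 0.296% higher, and 15 members and 2524 genes had an unadjusted p under 0.05. Without the block none was called either, and 5 members and 437 genes had an unadjusted p under 0.05. The median of the members was -0.16 in IgG IP and that of the eIF3 genes -0.54, against -0.01 over all genes. EIF3I had 9.97 and 9.73 in miR-21 IgG IP and 10.07 and 9.60 in control vector IgG IP, a difference of -1.39 from Total RNA (adjusted p = 0.0648), beside -1.62 in AGO2 IP. All 4 IgG IP arrays were below the Total RNA arrays given above. The IgG IP difference of EIF3I was -0.60 in replicate 1 and -2.19 in replicate 2.

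EIF3K had -1.23 in IgG IP beside -1.64 in AGO2 IP, EIF6 -1.17 beside -1.29, EIF2B2 -1.03 beside -1.41 and EIF4G1 -0.92 beside -1.31. In replicates 1 and 2 the IgG IP values were -0.29 and -2.18 for EIF3K and -0.59 and -1.75 for EIF6. They were -0.46 and -1.60 for EIF2B2 and -0.54 and -1.30 for EIF4G1. The AGO2 IP values, in the same order of genes, were -0.95, -0.86, -1.12 and -1.23 in replicate 1. In replicate 2 they were -2.34, -1.72, -1.70 and -1.38. EIF1AY had the highest value in IgG IP, 1.40 (adjusted p = 0.0753). EIF4E2 had 8.33 and 11.02 in miR-21 IgG IP and 8.39 and 9.31 in control vector IgG IP, a difference of 0.82 (adjusted p = 0.437) beside 1.98 in AGO2 IP. The miR-21 array of replicate 2 was the high one. By replicate, the IgG IP medians of the members were -0.12 and -0.21. Replicate 1 alone gave 1 gene higher (EIF1AY) and 1 lower (EIF5A2), where 0.772% and 2.99% of all genes were called, and replicate 2 alone gave 6 higher and 17 lower, where 14.7% and 16.6% were. Every IgG IP array was below Total RNA within both replicates for 16 genes, where 16.5% of all genes were, and above for 6, where 10% were.

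AGO2 IP was then set directly against IgG IP, the control for RNA that stays on the beads without AGO2. In limma with the block no member was called, and 0% of all genes in either direction; 1 member and 663 genes had an unadjusted p under 0.05. Without the block no member and 29 genes did. The difference was below 0 in 43 of the 51 genes, with a median of -0.27, against -0.08 over all genes. The 2 replicates gave different pictures. In replicate 1 the members ran from -1.24 to 2.36 (median -0.54), and in replicate 2 from -0.45 to 0.45 (median -0.04).

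**Figure D3:**
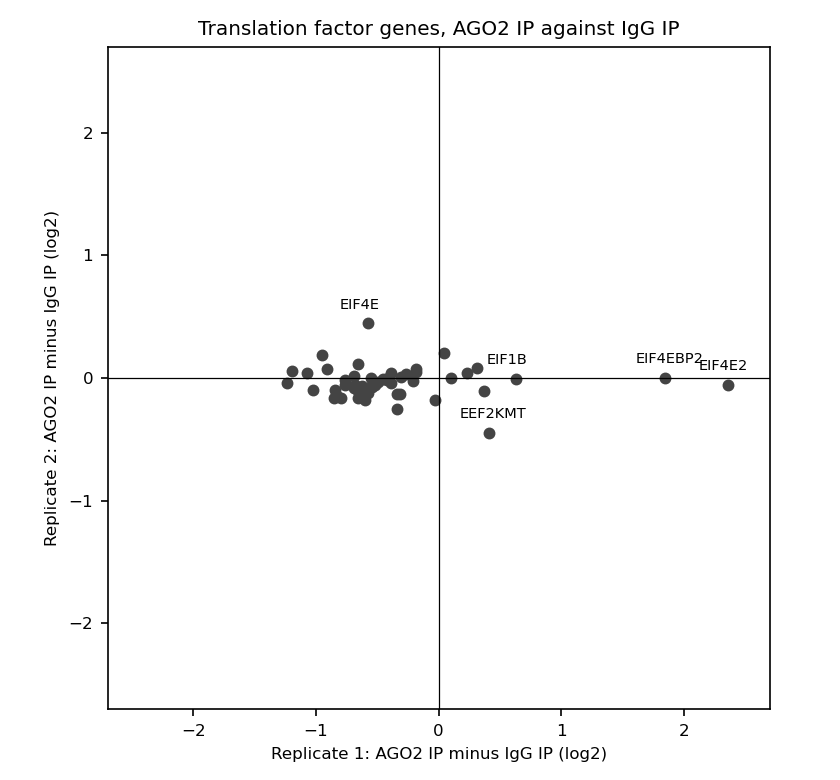
AGO2 IP minus IgG IP (log2, mean of both constructs) of the 51 tested translation factor genes, replicate 1 on the x axis and replicate 2 on the y axis, on equal scales; each point is a gene and 5 are named. The points spread from -1.24 to 2.36 along x and from -0.45 to 0.45 along y.

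Replicate 1 alone called 18 members lower and 3 higher (EIF1B, EIF4E2 and EIF4EBP2), where 11.5% and 12.5% of all genes were called, and replicate 2 alone called none, where 0% of all genes were called. In replicate 1, EIF4E2 had 10.53 in miR-21 AGO2 IP and 10.91 in control vector AGO2 IP, against 8.33 in miR-21 IgG IP and 8.39 in control vector IgG IP. In replicate 2 it had 10.80 in miR-21 AGO2 IP and 9.42 in control vector AGO2 IP, against 11.02 in miR-21 IgG IP and 9.31 in control vector IgG IP. In replicate 2 both miR-21 arrays were high and both control vector arrays low. The difference was 2.36 in replicate 1 and -0.05 in replicate 2. Over both replicates the probe set used for EIF4E2 gave 1.15, and its others gave 0.93, -0.007 and -0.003. EIF4EBP2 had 10.18 in miR-21 AGO2 IP and 9.93 in control vector AGO2 IP of replicate 1, against 8.17 in miR-21 IgG IP and 8.26 in control vector IgG IP. In replicate 2 it had 11.09 in miR-21 AGO2 IP and 9.68 in control vector AGO2 IP, against 11.11 in miR-21 IgG IP and 9.64 in control vector IgG IP. The difference was 1.84 in replicate 1 and 0.00 in replicate 2. Over both replicates the probe set used for EIF4EBP2 gave 0.92, and its others gave 0.28, 0.32, 0.56 and 0.22.

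Replicate 2 was also reduced by 2 arrays, AGO2 IP of the control vector and IgG IP of miR-21, a pair chosen with earlier results of these data known. The IP arrays of replicate 2 that stayed, miR-21 AGO2 IP and control vector IgG IP, differed in both fraction and construct. In replicate 2 EIF4E2 and EIF4EBP2 were higher with miR-21 than with the control vector in both IPs. There this fit cannot tell a fraction difference from a construct difference, and the calls that follow carry that limit. AGO2 IP against IgG IP then called EIF4E2 (2.20, adjusted p = 0.0107) and EIF4EBP2 (1.72, adjusted p = 0.0124) higher, where 5.95% of all genes were, and EEF2 (-0.84, adjusted p = 0.0482) and EIF1AY (-1.18, adjusted p = 0.0381) lower, where 1.47% were. Without the same arrays, AGO2 IP against Total RNA had 16 members lower and 2 higher, EIF4E2 and EIF4EBP2, where 13.3% and 8.58% of all genes were called, and IgG IP against Total RNA had none, where 0.351% were called lower and 0.0468% higher. Every AGO2 IP array was below the IgG IP arrays within both replicates for EEF1D, EIF2B4, EIF2D and EIF3B, 4 members where 3.9% of all genes were, and above for none, where 1.23% were.

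The miR-21 construct was compared with the control vector in each fraction, 2 arrays against 2. limma called none of the 51 genes in any fraction, with or without the block, and 0% of all genes. With the block, 3 members and 353 genes had an unadjusted p under 0.05 in AGO2 IP, none and 123 in IgG IP, and none and 3 in Total RNA. Without the block no member had one. The median difference was 0.01 in AGO2 IP (range -0.59 to 0.83), 0.02 in IgG IP (-0.45 to 0.83) and 0.00 in Total RNA (-0.21 to 0.23). In Total RNA the differences of all 51 genes lay between -0.41 and 0.40 in each replicate.

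**Figure D4:**
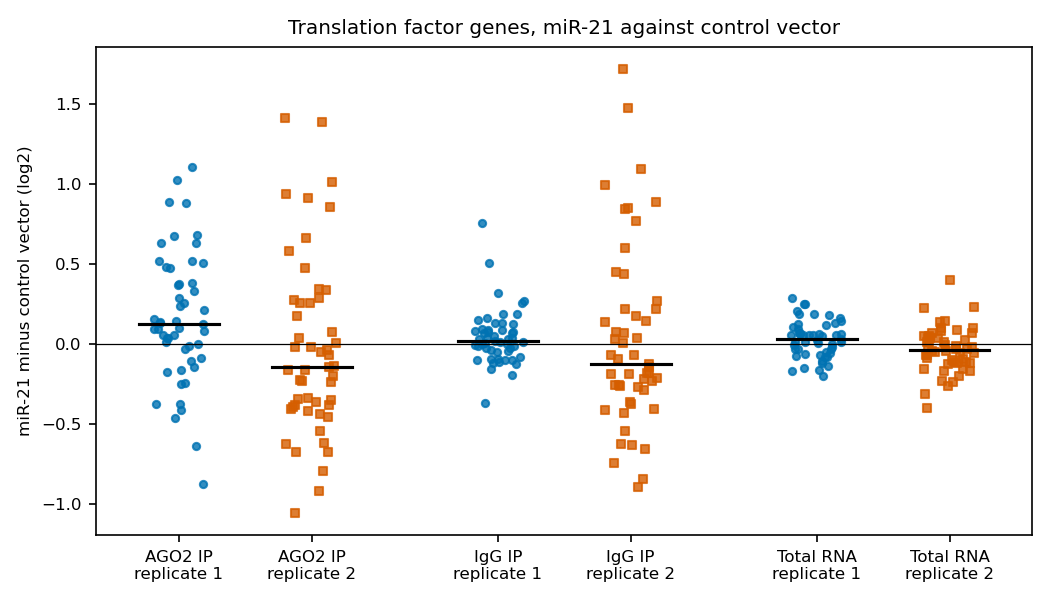
miR-21 minus control vector (log2, y axis) of the 51 tested translation factor genes in AGO2 IP, IgG IP and Total RNA, by replicate; each point is a gene and the bars are medians. The points of both IPs in replicate 2 spread to 1.41 and 1.72, and those of Total RNA stay between -0.41 and 0.40.

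The genes with the highest construct difference in AGO2 IP were EIF4EBP2 at 0.83 ± 0.61, EIF3F at 0.82 ± 0.32 and EIF5A at 0.79 ± 0.37 (SE, with the block). Other probe sets gave 0.60, 0.68, 0.49 and -0.27 for EIF4EBP2 and 0.01 and -0.08 for EIF5A. Those of EIF3F, with low means, gave -1.06 and 0.12. The lowest gene was EIF5B at -0.59, and its other probe sets ran from -1.04 to -0.21. EIF3F had 11.82 and 12.82 in miR-21 AGO2 IP, against 11.19 and 11.81 in control vector AGO2 IP. It had 11.97 and 12.76 in miR-21 IgG IP, against 11.89 and 11.91 in control vector IgG IP, so replicate 2 was higher with miR-21 in both IPs. EIF4E2 was 1.38 higher with miR-21 in AGO2 IP and 1.72 higher in IgG IP in replicate 2, and its differences in replicate 1 were -0.38 and -0.05. In AGO2 IP 27 of the 51 genes had the same sign in both replicates, in IgG IP 22 and in Total RNA 20. Whether the construct difference depended on the fraction was tested as an interaction, which called no gene for AGO2 IP over IgG IP or over Total RNA, with 39 and 60 genes at an unadjusted p under 0.05 with the block.

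Sequence at the starts was looked at as a description. A run of at least 5 C or T from the start, on the strand of the gene and at any listed start, was found in 11 of the 41 members with a window (26.8%), against 781 of 10356 tested genes with one (7.54%). These were EEF1A1, EEF2, EIF2A, EIF2D, EIF2S3, EIF3D, EIF3F, EIF3K, EIF3M, EIF4A2 and EIF4B. In AGO2 IP against Total RNA 11.3% of all genes tested fell. Of the 10 tested members with the run, 3 fell there (EIF3D, EIF3F and EIF3K), with a median of -0.72 and a range of -1.64 to -0.04. Of the 29 without it, 6 fell, with a median of -0.15 and a range of -1.62 to 1.98. Of the 14 members that fell, 9 had a window. EEF1D, EIF3A, EIF3G, EIF3H and EIF3L had none and are in neither count. EIF3I, without a run, had -1.62 and EIF3K, with a run of 8, had -1.64, a pair chosen after their values were seen. Whether the run had a part in the differences was not tested. Of 7 tested members whose mRNAs are known TOP mRNAs, 3 fell (EEF1D, EIF3F and EIF3H), with a median of -0.63.

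In the 300 bases around the starts (250 before and 50 from the start on), searched on both strands, CGGAAGT was in 24.4% of the members with a window and 14.9% of the tested genes, CACGTG in 26.8% and 12.7%, GGGCGG in 75.6% and 75.8%, and TATAAA in 4.88% and 8.43%. Matches of CGGAAGT and GGGCGG can overlap each other, and CACGTG reads the same on both strands. CGGAAGT was in 4 of the 9 members with a window that fell (EIF3I, EIF2B2, EIF5A and EIF6) and in 6 of the 30 other tested members, and CACGTG in 3 of the 9 (EIF3F, EIF3K and EIF4G1) and 8 of the 30. A match is a description of letters and not a binding site.

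Other genes of the pathway were counted from lists of the same kind. In AGO2 IP against Total RNA with the block, 11.3% of all genes tested were called lower and 4.71% higher. Beside those shares, none of 4 genes of poly(A)-binding proteins and their partners and none of 6 termination and recycling genes was called. Of 6 genes of eIF2 kinases and phosphatase subunits, EIF2AK4, the gene of the kinase GCN2, fell by 0.78 (adjusted p = 0.0246). Of 11 regulators of eIF4 and TOP mRNAs, LARP1, the gene of the TOP-binding protein, fell by 0.99 (adjusted p = 0.0302) and CYFIP1, the gene of an eIF4E-binding protein, fell by 1.08 (adjusted p = 0.0213). Of 5 mitochondrial factor genes, TUFM, the gene of the mitochondrial EF-Tu, fell by 1.06 (adjusted p = 0.0172) and MTIF3, the gene of a mitochondrial initiation factor, rose by 1.81 (adjusted p = 0.0288).

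Of 6 other cytosolic factor genes, 2 fell and 1 rose, where 11.3% and 4.71% of all genes tested did. MCTS1, the gene of a partner of DENR in reinitiation, fell by 1.08 (adjusted p = 0.0223). The enzymes that make hypusine on eIF5A went in opposite directions: DHPS, the gene of the first enzyme, fell by 1.14 (adjusted p = 0.0165), and DOHH, the gene of the second, rose by 1.19 (adjusted p = 0.0162). DOHH also rose in IgG IP against Total RNA, which shares the Total RNA arrays, by 1.38 (adjusted p = 0.022), and was the one gene of these lists called there. In that comparison 1.62% of all genes tested were called lower and 0.296% higher.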

How the data were processed

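The deposited values were log2 expression values made by the authors with RMA, per the submitters' processing notes; neither its version nor whether the 12 arrays were normalized together is stated there. Of 54675 probe sets, 62 were controls, 41091 listed 1 gene symbol, 1801 listed several and 11777 were not listed. Each gene was taken from its single-symbol probe set with the highest mean, and genes with a mean at or above 4.02, the median over probe sets, were tested. RMA values of different probe sets were not set against each other.

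limma 3.58.1 in R 4.3.3 fitted 6 group means to all 12 arrays, with lmFit, contrasts.fit and eBayes, and Benjamini-Hochberg adjustment over the 12824 genes. Arrays, of which there were 2 per group, limit the precision. The model had no block. As a check of pairing, the deviations from the group mean correlated between arrays of equal number at 0.468 to 0.873 over 15 pairs of groups (median 0.601), so the numbers were taken as pairing the arrays, and values with the replicate number as a block stand beside the others. SEs come from that model, with 5 residual degrees of freedom. Scripts were tested on simulated data. Figures used Python 3.11.15, pandas 2.3.3 and matplotlib 3.10.9.

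The members, lists and tests were chosen with earlier results of these data known. Genes named were, per comparison, up to 10 called rises and 10 called falls, a fixed set of always-named genes, the highest and lowest of each role, called genes whose probe sets disagreed in sign, and called genes of the other lists. EIF3A, EIF3D, EIF3F and EIF3H fell but were not among the 10 largest falls. Of these, EIF3F was named because its probe sets disagreed in sign. EIF3A, EIF3D, EIF3H and other members named in the text were chosen after their values were seen. Alternatives were the block, median centring, cyclic loess, the filter, the mean of probe sets, limma's trend and robust options, each replicate alone, and arrays left out. EEF1AKMT4, EEF1AKNMT, EEF1E1, EIF2S3B, EIF4E1B, EIF4G3 and EIF5AL1 are not analysed here. Sequences were read from RefSeq tables.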

Additional observations from a re-analysis of the deposited data

How the results depend on the processing

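The number of members called in AGO2 IP against Total RNA was 0 without the replicate block, 15 with the replicate block, and, with the block, 15 after median centring, 9 after cyclic loess, 14 with no filter on the mean, 15 at a mean of at least 6, 13 from the mean of probe sets and 14 with limma's trend and robust options. Replicate 1 alone gave 31, replicate 2 alone 26, and leaving out a pair of replicate 2 arrays (AGO2 IP of the control vector, IgG IP of miR-21) gave 18. With 1 array left out the count was 0 to 18 (11 when the left-out array was Total RNA of the control vector in replicate 1, and 12 when it was IgG IP of the control vector in either replicate). It was 0 without the miR-21 AGO2 IP array of replicate 1 or 2 or a Total RNA array of replicate 2; the differences with 1 array left out ran from -1.14 to -0.91 for EIF3B, -1.46 to -1.15 for EIF4G1 and -1.53 to -1.17 for EIF3G. In IgG IP against Total RNA the count was 1 after cyclic loess, 1 with no filter, 2 in replicate 1, 23 in replicate 2 and 0 to 3 with 1 array left out. Its median was -0.10 from the mean of probe sets and -0.254 to -0.0935 with 1 array left out. AGO2 IP against IgG IP had 21 members called in replicate 1 and 4 without the pair of arrays. With 1 array left out, the median construct difference ran from -0.21 to 0.21 in AGO2 IP, -0.18 to 0.16 in IgG IP (-0.105 without the control vector array of replicate 2) and -0.10 to 0.01 in Total RNA (-0.0492 without the control vector array of replicate 1). In IgG IP it was -0.10 from the mean of probe sets and -0.13 in replicate 2. In AGO2 IP against Total RNA 21 of the 51 members (41.2%) and 41.8% of all genes tested had opposite signs in the replicates. Of the members named by the rule, the sign turned within replicate 2 for EEF1A1 (0.0414), EEF1AKMT1 (0.18), EIF2B3 (0.40) and EIF2S3 (0.14), and within replicate 1 for EIF2S1 (-0.13), EIF3J (-0.23), EIF4E (-0.55), EIF4EBP1 (0.29) and EIF5A2 (-0.55). It also turned for EEF1AKMT1 after cyclic loess (0.0391) and without the control vector AGO2 IP array of replicate 1 (0.17), for EIF2B3 without that array (0.13) or a Total RNA array of replicate 1 (0.028 and 0.0076), and for EIF4E without the control vector AGO2 IP array of replicate 2 (-0.0772) or the pair of arrays (-0.0665). The replicate block changed no other call of a member in the 6 comparisons or 2 interactions. The cause of these changes was not tested. In AGO2 IP against Total RNA, 0% of all genes tested were called without the block, and 11.3% lower and 4.71% higher with it. Over all genes, 1461 were lower and 526 higher after median centring, and 788 and 619 after cyclic loess. For settings with no such value here or above, a change in the members cannot be told from a change over all genes. With 2 arrays per group, groups that overlap may still differ by less than these arrays can show.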
